A study of Sus scrofa with 30 samples.

Results

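In small RNA of the porcine endometrium, 520 of 512939 distinct sequences were 28 to 31 bases long, had at least 100 reads over the 30 libraries and were absent from the list of 873 sequences that the authors annotated as miRNAs and isomiRs. They are the long small RNAs described here. They held 1456246 of the 97398404 deposited reads, or 1.495%. They were chosen by their length and by the read counts summed over all libraries, so that their abundance is a description. At the border of the rule, 3 members had 100 reads and 38 had 100 to 109, whereas 3 sequences left out had 99 reads and 34 had 90 to 99. The longest deposited read had 31 bases, so that an RNA longer than that is seen here, if at all, by a part or not in full length.

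The endometrium, the inner lining of the uterus, was taken from Hampshire x Duroc gilts of 7 to 8 months, with 1 animal per library. Pregnant gilts (P) were sampled after death on days 12 (PD12, n = 5), 16 (PD16, n = 5) and 20 (PD20, n = 6) of pregnancy, and cyclic gilts (C) on the same days of the estrous cycle (CD12, n = 4; CD16, n = 5; CD20, n = 5). Pregnant gilts had been inseminated and held at least 4 conceptuses, and cyclic gilts were the reference for pregnancy on each day. Conceptuses were flushed out up to day 16, whereas on day 20 the tissue came from implantation sites from which embryos and trophoblast had been dissected, so that the place of sampling and the separation of maternal from embryonic tissue differed between PD20 and the other groups and cannot be told apart from the day of pregnancy. Each library held between 2029729 and 6402731 reads, and values are given as reads of a sequence per 1000000 deposited reads of the library (RPM). In bulk tissue, fewer cells of a type and less RNA per cell cannot be told apart.

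Sequences of this length are fragments of several kinds of RNA. Box C/D small nucleolar RNAs guide the methylation of ribosomal RNA and carry a C box near their 5′ end and a D box near their 3′ end. Transfer RNAs bring amino acids to the ribosome, and their cleavage in or near the anticodon loop leaves stable 5′ fragments, a process known from stressed cells and from reproductive tissues and fluids. Y RNAs bind the protein Ro60 and are cut into fragments of both ends. PIWI-interacting RNAs (piRNAs), which silence transposons in the germ line, are of this length and often begin with U or carry A at base 10.

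Origin was read from letters within the sequences alone, since they were not placed on a genome. The C/D class had CTGA, the letters of the D box, within the last 8 bases, or TGATGA, letters of the C box, within the first 14. The tRNA class had the A box, an internal promoter of genes of RNA polymerase III, starting at base 6 to 10, or AGTGGTT within bases 10 to 22. The Y RNA class had GGTCCGA within the first 14 bases, or TTGACTG or TGACTAG within the last 14. Members that shared any run of 20 bases formed a family, and a member without letters of its own took the class of the most abundant member of its family. Searches ran on the strand that was sequenced. A match describes letters and does not prove an origin.

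The most abundant members of the 10 largest families are shown first, because they held most of the reads. The capitals mark the letters that gave the class.
C/D fragment a: aaaagtgatgtcatcttaactaCTGAga
tRNA-Gly fragment: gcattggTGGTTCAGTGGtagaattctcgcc
C/D fragment b: atttgctgttgagactcggaaatCTGAat
C/D fragment c: cactatgactgaaaggtattttCTGAgc
C/D fragment d: ctggaTGATGAtatcccattaaCTGAgc
C/D fragment e: atgcagtgtggaacacgatgaaCTGAac
C/D fragment f: atgtgTGATGAtgatcaaagatCTGAta
C/D fragment g: ttccatgagtgaaatctaatagtCTGAca
C/D fragment h: tggaaaTGATGAactgtctgagcCTGAcc
C/D fragment i: ctcagtgatgtgatctgtgtggttCTGAga
The letters of the tRNA-Gly fragment are those of the 5′ part of a glycine tRNA of mammals.

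The smaller families that the results turn on carried the following letters. The first has the letters of the 5′ part of a histidine tRNA, and the others have letters of the 5′ or the 3′ end of Y RNAs.
tRNA-His fragment: gccgtgatcgtatAGTGGTTagtactctgc
Y fragment a: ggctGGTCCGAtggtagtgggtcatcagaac
Y fragment b: agttGGTCCGAaggctgtgggttattgtt
Y fragment c: ccccccactgctaaatTTGACTGgcttt
Y fragment d: cttctcactactgcactTGACTAGtctt

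By these letters, most of the long sequences were C/D fragments. The C/D class held 288 members in 96 families and 73.0% of the members' reads, and 277 of them had the letters themselves. The tRNA class held 113 members in 12 families and 22.5% of the reads, and the Y RNA class 39 members in 6 families and 3.03%. Of the other members, 8 shared a run of 17 bases with an annotated miRNA or isomiR (0.273% of the reads), 34 had a first T or an A at base 10 (0.561%), and 38 had none of these (0.644%). The reads were concentrated on few sequences. C/D fragment a alone held 19.6% of the members' reads, the 10 most abundant members held 64.3% and the 50 most abundant 86.8%, whereas the median member had 238.5 reads.

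The D box letters were common among the members and rare among shorter sequences. CTGA was found within the last 8 bases of 262 of the 520 members (50.4%), of 33.5% of the 2596 sequences of 28 to 31 bases with 10 to 99 reads, of 6.96% of the 5744 sequences of 17 to 27 bases with at least 100 reads outside the annotated list, and of 6.76% of the annotated list. In 230 members CTGA ended 1 or 2 bases before the 3′ end. TGATGA was found within the first 14 bases of 56 members, and 39 members had both motifs, as in C/D fragments d, f and h.

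Members of 28 bases were the most frequent. There were 190 members of 28 bases, 137 of 29, 123 of 30 and 70 of 31, which held 49.2%, 23.4%, 11.7% and 15.6% of the members' reads. The classes differed in length. In the C/D class 64.3% of the reads were of 28 bases and 29.3% of 29, whereas in the tRNA class 63.1% were of 31 bases and 28.99% of 30, at the upper limit of what was deposited. The first base was A in 163 members, C in 98, G in 134 and T in 125, with 44.1%, 13.8%, 25.2% and 16.9% of the reads, whereas 90.4% of the reads of the annotated list began with T. A first T or A at base 10 was found in 177 members (34.04%). Both together were found in 18 members (3.46%), in 4.66% of the sequences of the same length with 10 to 99 reads and in 15.01% of the annotated list.

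The share of all reads that fell on the long sequences was similar in 5 of the 6 groups and higher and more variable in PD20. In pregnancy it was 1.38% ± 0.22 (SD, n = 5) in PD12 and 1.27% ± 0.22 (n = 5) in PD16, and in the cycle 1.32% ± 0.29 (n = 4) in CD12, 1.24% ± 0.26 (n = 5) in CD16 and 1.40% ± 0.19 (n = 5) in CD20. In PD20 it was 2.20% ± 0.82 (n = 6), with libraries from 1.01% (95% Wilson interval 1.00 to 1.02) to 3.47% (3.45 to 3.49). The PD20 libraries thus reached both lower and higher than the CD20 libraries, which lay between 1.22% and 1.69%. These intervals cover counting error only, since reads amplified by PCR without molecular identifiers are not independent molecules.

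The tRNA class, in which 57 of 113 members had fewer than 100 reads outside PD20, made up most of that difference in level. Its share of all reads was 0.328% ± 0.163 in PD12, 0.215% ± 0.093 in PD16 and 0.899% ± 0.714 in PD20. In the cycle it was 0.0980% ± 0.0416 in CD12, 0.165% ± 0.101 in CD16 and 0.173% ± 0.076 in CD20. The 6 PD20 libraries had 0.203, 1.17, 1.16, 0.301, 0.482 and 2.08%, and the highest CD20 library had 0.237%. Replicate 1 of PD20 was therefore within the range of CD20 and the other 5 were above it. Without replicates 3 and 6 of PD20, a pair set aside after the data were seen, the share in PD20 was 0.538% ± 0.436. The C/D class had 1.24% ± 0.32 in PD20 and 0.982% to 1.15% on average in the other groups, and the Y RNA class had between 0.0416% and 0.0489% in all 6 groups. No test was made on the shares, because they are scores over the members.

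Members of this class mostly had their highest RPM in replicate 3 or 6 of PD20. Of 113 tRNA members, 57 had fewer than 100 reads outside PD20 and so became members through PD20. Of the other 56, 52 had their highest RPM in a PD20 library and 49 in replicate 3 or 6. Of all 520 members, 24 had at least 50% of their summed RPM in 1 library, in each case replicate 3 or 6 of PD20. Of these, 22 had fewer than 100 reads outside PD20, so that the minimum of reads partly set this count, and among the 392 members with at least 100 such reads it was 2, both in replicate 3. Over the members with at least 100 reads outside PD20, the median part in the highest library was 22.1% in the tRNA class, 8.70% in the C/D class and 10.9% in the Y RNA class, where equal parts would give each library about the same. Of the 520 members, 185 had reads in all 30 libraries and 20 had reads in fewer than 15.

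Replicate 3 of PD20 also had few or no reads of some forms altered near their 3′ end, and whether it was processed differently was not tested. Over the members its median correlation with libraries of its own group was 0.689, where replicate 1 of CD12 had 0.680 and the other libraries at least 0.714, and with those of other groups 0.593, where the next library had 0.668, as a description. The form T29C of C/D fragment b (T at base 29, counted from 1 at the 5′ end, changed to C) had 2.75 to 6.21% of the reads of that fragment in the 22 other libraries with at least 500 reads of it, and 0 reads beside 7122 of the fragment in replicate 3. The form C30A of the tRNA-Gly fragment had 0.0285% of the reads of that fragment in replicate 3, and 2.98% in the median library. Replicate 3 of CD16 was lower, at 0%, so that replicate 3 of PD20 was not alone in this form.

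The 3 members of at least 500 reads with the largest part of their RPM in a single library were all altered forms of the tRNA-Gly letters.
skewed fragment a: gcattgttgttcagtggtagaattctcgcc
skewed fragment b: gcattgTGGTTCAATGGtagaattctcgcc
skewed fragment c: gcatgTGGTTCAGTGGtagaattctcgcc
Skewed fragment a was at 194 RPM in replicate 3 of PD20, which was 98.3% of its summed RPM, and had reads in 4 other libraries with at most 1.62 RPM. Skewed fragment b was at 173 RPM in replicate 6 of PD20 (79.7%) and at 1.24 to 11.5 RPM in the other PD20 libraries. Skewed fragment c was at 687 RPM in replicate 3 (77.2%) and at 39.3 RPM in replicate 6. A library without a read of a sequence may have held it below 0.469 to 1.48 RPM, the level of 3 reads in the deepest and the shallowest library.

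The comparisons asked which sequences differed between days within each status and between pregnancy and the cycle on each day. Each of the 7137 sequences with at least 100 reads, of any length, was tested with edgeR's quasi-likelihood F-test with Benjamini-Hochberg adjustment, and a sequence was called at an adjusted p under 0.05 with an absolute log2 fold change (log2FC) over 1. Between days of pregnancy, with PD16 and PD20 tested jointly against PD12, 14 members were called, beside 0.631% of all sequences tested, of which 0.476% were higher. All 14 were tRNA members with a higher level in PD20. For PD20 against CD20, 11 members were called, beside 0.308% of all sequences tested, of which 0.266% were higher. They were again all tRNA members and higher in PD20. That held for this F-test on all libraries, with the minimum of 100 reads, single sequences and no block. Without replicate 4 of PD20, 1 of 21 members called between days of pregnancy was outside the tRNA class. With counts summed over the first 17 bases within a length class, 3 of 26 members called there were lower. With a minimum of 10 reads, 7 of 59 members called between days of pregnancy and 5 of 65 called for PD20 against CD20 were outside the tRNA class, and 7 and 1 were lower, beside 0.967% and 0.674% of all sequences. Outside the tRNA class were 5 of 50 members called by the likelihood ratio test and 8 of 48 by DESeq2 for PD20 against CD20, beside 1.92% and 2.79% of all sequences, and 2 of 41 and 4 of 31 between days of pregnancy, beside 2.21% and 2.06%. These tests called 1 and 6 members lower for PD20 against CD20, and 1 and 3 between days of pregnancy. Altogether 19 members were called in either comparison and 6 in both. With the replicate number as a block, 0 members were called between days of pregnancy, beside 0 of the 7137 sequences. For PD20 against CD20 that block called 4 members, 3 of them among the 11, beside 4 sequences. Without replicates 3 and 6 of PD20, 6 members were called between days of pregnancy, beside 19 of the 7137 sequences, and 0 for PD20 against CD20, beside 0, and without replicate 1, 2 or 5 of CD20 the latter comparison also called 0. These comparisons share the PD20 libraries, and many called members are overlapping forms of the same RNA, most of them in the families of the tRNA-Gly fragment (7 and 6 members) and of a tRNA-Gly variant described below (6 and 3).

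The F-test called no member in the other comparisons. Days of the cycle, PD12 against CD12 and PD16 against CD16 called 0 members and 0% of all sequences, with 32, 37 and 27 members at an unadjusted p under 0.05 in the F-test, beside 648, 375 and 368 of the 7137 sequences, and DESeq2 called 3 members between days of the cycle, beside 48 of the 7137 sequences. A test of whether the difference between pregnancy and the cycle changed with the day called 0 members, beside 0.014% of all sequences, with 64 at an unadjusted p under 0.05, beside 535 of the 7137 sequences, and 6 members with DESeq2, beside 37 of the 7137 sequences. That the calls of PD20 are limited to day 20 is thus not shown by a test of the difference.

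The choice of members bears on these counts. Because members needed 100 reads over all libraries, a sequence could enter through PD20 alone, and 57 of 113 tRNA members had fewer than 100 reads outside it. Of the 7137 sequences tested, 6110 had at least 100 reads outside PD20, and the share of them that was called is not given here. With at least 100 reads outside PD20 there were 392 members, 56 of them tRNA members, among which 5 of the 14 and 7 of the 11 calls remained. The median log2FC of these 56 was 2.18 for PD20 against CD20 (55 above 0), 1.30 for PD20 against PD12 (55 above 0) and 1.41 for PD12 against CD12 (54 above 0, none called), whereas that over all sequences tested was 0.07, 0.00 and -0.01. For PD16 against PD12 it was -0.64, with 6 of 56 above 0, and for PD16 against CD16 0.35, with 39 above 0. In the cycle it was 0.41 for CD16 and 0.66 for CD20 against CD12, with 42 and 44 of 56 above 0.

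The tRNA-Gly fragment itself, the second most abundant member, was not called by the F-test, but was called under 3 of 22 alternatives for PD20 against CD20 and 1 of 27 between days of pregnancy. In pregnancy its level was 1617 ± 796 RPM in PD12 and 937 ± 412 in PD16, and in the cycle 446 ± 209 in CD12, 735 ± 430 in CD16 and 777 ± 404 in CD20. In PD20 it was 3239 ± 2505 RPM, with a lowest value of 887, a median of 2661 and a highest of 7423. In PD20, 2 libraries, at 887 and 1096 RPM, were below the highest CD20 library at 1120 RPM. The log2FC was 2.13 (SE 0.58, adjusted p = 0.165, edgeR's quasi-likelihood F-test) for PD20 against CD20 and 1.00 (SE 0.50) for PD20 against PD12 (joint adjusted p = 0.264).

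Forms of the tRNA-Gly letters with G in place of T at base 5 were called. The 2 shown, chosen after their values were seen, are the longest and the shortest called for PD20 against CD20.
tRNA-Gly T5G fragment, 31 bases: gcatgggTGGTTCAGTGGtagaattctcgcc
tRNA-Gly T5G fragment, 28 bases: gcatgggTGGTTCAGTGGtagaattctc
The form of 31 bases was between 153 and 1278 RPM in PD20, with a median of 493.3, and at 19.3, 66.8, 7.03, 33.5 and 29.8 RPM in the 5 CD20 libraries. All PD20 libraries were above all CD20 libraries, and the log2FC was 4.37 (SE 0.68, adjusted p = 0.0218, edgeR's F-test). In PD12 it was at 57.4, 65.0, 74.4, 405 and 68.9 RPM, so that replicate 4 of PD12 was within the range of PD20. Relative to the tRNA-Gly fragment this form had 24.4% of its reads in replicate 5 of PD20 and 2.13% in replicate 3 of CD20, the highest and the lowest of the 30 libraries.

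The T5G form of 28 bases separated PD20 from every other library. It was between 18.95 and 106 RPM in PD20, and at 4.19, 2.57, 3.53, 4.10 and 2.46 RPM in PD12 and 1.89, 1.93, 0.827, 4.30 and 2.91 RPM in CD20. The highest value outside PD20 was 8.95 RPM, in replicate 2 of PD16. The log2FC was 4.37 (SE 0.60, adjusted p = 0.0164, edgeR's F-test) against CD20 and 3.80 (SE 0.71, joint adjusted p = 0.00824) against PD12. The form of the tRNA-Gly fragment without its last 3 bases, of 28 bases, was called between days of pregnancy only, at a log2FC of 2.06 (SE 0.38, joint adjusted p = 0.00633, edgeR's F-test) for PD20 against PD12. It was between 72.7 and 326 RPM in PD20 and at most 69.4 RPM in PD12.

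A variant of the tRNA-Gly letters with G15A, which is shown because its family held 6 of the 14 calls between days of pregnancy, was nearly absent outside PD20. The capital marks base 15 in both sequences.
tRNA-Gly fragment: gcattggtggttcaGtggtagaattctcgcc
tRNA-Gly G15A fragment: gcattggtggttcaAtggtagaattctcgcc
The G15A fragment was at 5.50, 41.0, 9.22, 23.1, 37.4 and 409 RPM in PD20, at 0.246 to 5.99 RPM in PD12 and at 0 to 2.18 RPM in CD20. Replicate 6 thus held most of its reads, and replicate 1 of PD20 was below the highest PD12 library. The log2FC was 6.51 (SE 1.25, adjusted p = 0.0391, edgeR's F-test) for PD20 against CD20 and 4.95 (SE 1.10, joint adjusted p = 0.00952) for PD20 against PD12. Without replicate 6 of PD20 the log2FC was 4.61 and 3.14. The call against CD20 was lost without replicate 5 of PD20, without any one library of CD20, without replicates 3 and 6 of PD20 together, and with library sizes without TMM, and that against PD12 with the replicate number as a block. The fragment had 93 reads outside PD20, so that it was tested only through its reads in PD20, and its call is a description. The same holds for skewed fragment b, a form of this variant with 16 reads outside PD20.

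For the shorter and altered G15A forms that the naming rule picked, one group had almost no reads, and a bound is given in place of a fitted fold.
tRNA-Gly G15A fragment, 28 bases: gcattggTGGTTCAATGGtagaattctc
tRNA-Gly G15A fragment, 29 bases: gcattggTGGTTCAATGGtagaattctcg
tRNA-Gly G15A and T27C fragment: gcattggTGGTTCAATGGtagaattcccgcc
The form of 28 bases had 202 reads over PD20 and 0 over PD12, which makes it at least 53.6-fold higher when 3 reads over the group are taken for PD12 (joint adjusted p = 0.0200, edgeR's F-test). The form of 29 bases had 107 reads against 0 and was at least 28.4-fold higher in the same way (joint adjusted p = 0.0190, edgeR's F-test). It was between 0.882 and 14.4 RPM in the PD20 libraries. Both bounds pool the reads of PD20, so that the highest library weighs most in them. They also take 3 reads over the whole of PD12, a level of 0.176 RPM. The level of 3 reads in a single PD12 library was 0.738 to 0.965 RPM, and with that level both bounds would be lower. Against CD20, the form of 28 bases had 202 reads against 2, a ratio of 61.2 (95% counting interval 16.7 to 509, adjusted p = 0.0391, edgeR's F-test). The form with G15A and T27C had a ratio of 135 over a single CD20 read (24.0 to 5362, adjusted p = 0.0449). It was at 42.4 RPM in replicate 6 of PD20, and the next PD20 library had 10.1 RPM. Leaving out 1 library gave a log2FC against CD20 of 4.79 to 6.19 for the form of 28 bases and 5.08 to 7.94 for the form with T27C. The intervals cover counting error only. All 3 forms had fewer than 100 reads outside PD20 and were tested only through their reads there, so that these values are a description as well.

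Of the other tRNA fragments, the tRNA-His fragment was not called. It was at 6.56, 24.2, 173, 5.95, 7.99 and 66.3 RPM in PD20 and at 3.79, 2.25, 1.24, 4.30 and 4.72 RPM in CD20. All PD20 libraries were above all CD20 libraries, and the log2FC was 4.01 (SE 0.95, adjusted p = 0.0937, edgeR's F-test). Replicate 3 of PD20 held 37.8% of its summed RPM, and outside PD20 it reached 52.0 RPM in replicate 3 of PD12.

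Groups that did not overlap were counted without a model. Every PD20 library was above every CD20 library for 25 members, 24 of them in the tRNA class, beside 1.23% of all sequences tested. With at least 100 reads outside PD20, it was 12 of 392 members, 11 of them in the tRNA class. The percentages in this paragraph are over all 7137 sequences. Those over the 6110 with at least 100 reads outside PD20 are not given. Every PD20 library was above every PD16 library for 16 members, 14 in the tRNA class, beside 0.813%, and for 7 of the 392 members with at least 100 reads outside PD20, 6 in the tRNA class. Every PD20 library was above every PD12 library for 10 members, 8 in the tRNA class, beside 0.729%, and for 4 of the 392, 3 in the tRNA class. Every PD12 library was above every CD12 library for 13 members, 11 in the tRNA class, beside 1.82%. The reverse order, every CD20 library above every PD20 library, was found for 7 members, 4 of them Y RNA fragments and none in the tRNA class, beside 0.841%. Every PD12 library was above every PD20 library for 1 member (0.729% of all sequences), every PD16 library above every CD16 library for 2 (0.518%) and the reverse for 1 (0.406%), and 0 members had every CD12 library above every PD12 library (0.35%) or every PD16 library above every PD20 library (0.322%).

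Deposited sequences of 17 to 27 bases that begin with the same 17 bases as a tRNA member are shorter than the members, but they were picked by the letters of the tRNA members, of which 57 had fewer than 100 reads outside PD20, so that they are no independent evidence. They held 0.0529% ± 0.0263 of all reads in PD20, 0.0170% ± 0.0056 in PD12 and 0.00865% ± 0.00230 in PD16, and in the cycle 0.0117% ± 0.0046 in CD12, 0.00958% ± 0.00291 in CD16 and 0.0104% ± 0.0056 in CD20. The lowest PD20 library, at 0.0163%, was within the range of CD20, which reached 0.0167%. Long forms had 20.4 ± 15.6 times the reads of short forms over the 30 libraries.

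Levels of marker miRNAs are given beside the tRNA result, and their part in it was not tested. In PD20 the means of miR-302 and of the summed erythrocyte and muscle lists were above those of the other groups. The summed levels of the leukocyte and epithelial lists were within the range of the other groups. The single annotated miR-302 sequence, a miRNA of embryonic cells, was added after the data were seen, so that its level is a description. It had 7, 4, 11, 117, 48 and 121 reads in the 6 PD20 libraries, 2, 0, 0, 0 and 1 in CD20 and 0 in all others. In the same order, the tRNA class had 0.203, 1.17, 1.16, 0.301, 0.482 and 2.08% of all reads in the PD20 libraries. A relation between the 2 was not tested. The summed level of the 3 erythrocyte miRNAs, all present and led by miR-451, was 1659 ± 972 RPM in PD20 and between 646 and 1159 RPM on average elsewhere. The means of miR-451 and miR-144 were highest in PD20, whereas miR-486 was at 13.3 RPM in PD20, 16.8 in PD12 and 14.5 in CD16. In the muscle list miR-1 was the most abundant, and the annotated list holds no sequence named miR-133a or miR-133b. The summed level of the muscle list was 5968 ± 7284 RPM in PD20, with 20427 RPM in replicate 1, and 1779 to 4349 RPM elsewhere. Of the sum in PD20, miR-1 made up 5950 RPM. The mean of miR-206 was also highest in PD20, at 4.55 RPM, whereas miR-499 was at 13.2 RPM in PD20 and 9.72 to 21.6 RPM elsewhere. The leukocyte list, for which the annotated list holds no sequence named miR-223, was at 142.1 ± 52.5 RPM in PD20 and 117 to 219 RPM elsewhere. Its most abundant member in PD20, miR-342, had means of 173 RPM in PD12 and 55.3 in PD20. The others were higher in PD20 than in PD12, with 24.4 and 48.6 RPM in PD12 and PD20 for miR-142, 18.1 and 30.9 for miR-150 and 4.21 and 7.34 for miR-155. Each of these means was lower in PD20 than in CD20. The 10 epithelial miRNAs were all present, led by miR-182 in PD20, at 14746 ± 4393 RPM in PD20 and 11009 to 17235 RPM elsewhere. This sum was carried by miR-182, miR-200b and miR-200c. Of its other members, miR-205 was at 4.55 ± 3.99 RPM in PD20 and 47.3 ± 12.6 in CD20, miR-429 at 14.9 ± 9.5 and 49.5 ± 37.2, and miR-141 at 117 ± 137 and 346 ± 299, and these 3 had their lowest group mean in PD20. The mean was higher in PD20 than in CD20 for 5 of the 10, with 1129 and 570 RPM for miR-203, 5274 and 3420 for miR-182, 292 and 174 for miR-183, 3809 and 2752 for miR-200c and 3859 and 3252 for miR-200b. The labels number the animals between 1 and 36, and libraries were sequenced in pools whose members are not given. Within the numbers 1 to 12 the mean tRNA share was 0.686% in 2 PD20 libraries (0.203 and 1.17%) and 0.158% in 2 CD20 libraries (0.0955 and 0.221%), which overlapped. Within 13 to 24 it was 0.732% (n = 2, 0.301 and 1.16%) and 0.155% (n = 2, 0.0836 and 0.226%). Within 25 to 36 it was 1.28% (n = 2, 0.482 and 2.08%) and 0.237% (n = 1).

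None of the 288 C/D members was called by the F-test on all libraries with the minimum of 100 reads. This does not show that their levels were equal. The likelihood ratio test called 2 C/D members and DESeq2 called 1 for PD20 against CD20, beside 1.92% and 2.79% of all sequences. Between days of pregnancy they called 1 and 3, beside 2.21% and 2.06%. The minimum of 10 reads called 1 and 4 in these comparisons, beside 0.674% and 0.967% of all sequences. It called 4 each for PD12 against CD12 and PD16 against CD16, beside 0.272% and 0.133%. In the F-test 17 had an unadjusted p under 0.05 for PD20 against CD20 and 14 between days of pregnancy, beside 951 and 670 of the 7137 sequences. The log2FC was above 1 for 18 and below -1 for 46 members for PD12 against CD12, and for 29 and 30 for PD20 against CD20. The class median log2FC was 0.01 and 0.03 for PD20 against CD20 and against PD12. Of 37 C/D families of at least 1000 reads, 35 had reads in all 30 libraries and 18 varied over the libraries by less than 50% of their mean. C/D fragment a was at 2875 ± 901 RPM in PD12, 2872 ± 889 in PD16 and 3060 ± 1149 in PD20, and in the cycle 2748 ± 1086 in CD12, 2963 ± 207 in CD16 and 3492 ± 1002 in CD20, so that the means differed by less than the SD of PD20. Its log2FC was -0.08 (SE 0.33, adjusted p = 0.939, edgeR's F-test) for PD20 against CD20. C/D fragments c to i were not called by the F-test either, and their families had between 1.42% and 6.14% of the members' reads each.

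C/D fragment b occurred in 2 forms whose proportion differed between libraries. The capital marks base 28.
C/D fragment b: atttgctgttgagactcggaaatctgaAt
C/D fragment b, A28T form: atttgctgttgagactcggaaatctgaTt
Fragment b was at 0.974 to 37.9 RPM in 7 libraries and at 390 to 2782 RPM in the other 23, with no library in between. In the 7 libraries the A28T form was at 52.9 to 90.3 RPM. In 6 other libraries the A28T form was under 5 RPM while fragment b was at 1132 to 2782 RPM, and in the remaining 17 fragment b was at 390 to 2263 RPM and the A28T form at 16.1 to 66.4 RPM, a range that overlaps that of the 7 libraries. Both forms had reads in 29 of the 30 libraries. The 7 libraries were 2 of PD12, 2 of PD16, 1 of CD12, 1 of CD16, 1 of CD20 and none of PD20, and the difference between PD20 and PD12 in this fragment, a log2FC of 1.79 (SE 1.10, joint adjusted p = 0.737, edgeR's F-test), was not called.

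The Y RNA class had a similar summed share in all groups. No member of it was called by the F-test on all libraries with the minimum of 100 reads and no block. With the title numbers 1 to 12, 13 to 24 and 25 to 36 as a block, 1 member was called. It was lower in PD20 than in CD20, beside 27 of the 7137 sequences called. For PD20 against CD20, the likelihood ratio test called 2 of the 39 members, 1 of them lower in PD20, beside 1.92% of all sequences. DESeq2 called 6, of which 5 were lower, beside 2.79%. Y fragments a and b carry 5′ letters, and Y fragments c and d carry 3′ letters. The family of Y fragment a was at 233 ± 89 RPM in PD20 and 124 ± 78 in CD20, the family of Y fragment c at 70.2 ± 9.1 and 141.3 ± 74.7, and that of Y fragment d at 60.3 ± 22.9 and 108 ± 42. The family of Y fragment b was at 87.5 ± 52.3 RPM in PD20 and 84.0 ± 82.4 in CD20. For PD20 against CD20 the log2FC was 0.81 (SE 0.43, adjusted p = 0.424, edgeR's F-test) for Y fragment a and -1.002 (SE 0.397, adjusted p = 0.305) for Y fragment c. The lowest adjusted p of the 39 members was 0.0663 in the F-test, and 13 had an unadjusted p under 0.05, beside 951 of the 7137 sequences. The share of the class was 0.0394% ± 0.0111 in the 8 libraries of animals 1 to 12, 0.0374% ± 0.0079 in the 12 of animals 13 to 24 and 0.0610% ± 0.0119 in the 10 of animals 25 to 36.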

How the data were processed

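The authors deposited, for each library, raw counts of reads per distinct sequence. Per the article, bases had to exceed the authors' quality limit, adapters were removed, reads that were too short (under 17 bases) or ambiguous were dropped, and equal reads were counted together. The counts are not aligned or normalized. Libraries were cut from a gel at the size of miRNAs, which lowers the yield of longer RNA, and depth sets a floor of 3 reads.

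Members, classes and marker lists were chosen with earlier results of these data known, and the letters of the classes after the sequences were seen. The marker miR-302 was added after the data were seen. Counts were tested in edgeR 4.0.16 (R 4.3.3) with TMM on all deposited reads, a prior count of 0.125 and sequences with at least 100 reads. The SE is the log2FC divided by the square root of F. Days were tested jointly against day 12, with PD16 and PD20, or CD16 and CD20, in 1 test. Named were the most abundant member of each of the 10 largest families, up to 2 called members per direction with the largest log2FC per comparison, and the 3 members of at least 500 reads most concentrated in 1 library. Exceptions, chosen after their values were seen, were the T5G forms, the tRNA-His and Y fragments, the form of the tRNA-Gly fragment of 28 bases and the single-base forms. Fits were tested on simulated data in which 200 sequences were changed 4-fold or 16-fold. Of the 4-fold changes, 0 of 200 were called for PD12 against CD12, PD16 against CD16 and PD20 against CD20. Between days of pregnancy 30 of 200 were called, and between days of the cycle 6 of 200. Of the 16-fold changes, 66.5 to 74.5% were called. The absence of a call therefore does not show the absence of a change. Results for some members are not reported here. DESeq2 1.42.0 and Python 3.11.15 were used besides. Whether animals were littermates was not given in the sources used here. Libraries of the same group differed by more than counting noise, and none was taken as a duplicate.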

Additional observations from a re-analysis of the deposited data

Results flagged for a closer look

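In 18 of 126 groups tested (a member's RPM or a class share within a group of 4 to 6 libraries), 1 library lay far from the rest of its group. Chance flags about 1 in 20 groups. That rate does not apply to skewed fragments a to c, which were named for their concentration in 1 library and gave 7 of the 18, nor to members near 0. No explanation was tested. Of these, 5 concerned replicate 3 or 6 of PD20. Skewed fragment a was at 194 RPM and skewed fragment c at 687 RPM in replicate 3. Skewed fragment b was at 173 RPM, the G15A fragment at 409 RPM and its form with T27C at 42.4 RPM in replicate 6.

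Another 4 concerned the C/D class. Its share was 1.499% of all reads in replicate 1 of CD20, where the next library had 1.11%. C/D fragment a was at 4427 RPM in replicate 1 of PD16, C/D fragment d at 1140.3 RPM in replicate 5 of PD20 and C/D fragment f at 746 RPM in replicate 4 of CD16.

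The other 9 were members near 0 in which 1 library of a group had the only reads or more reads than the others. Skewed fragment a was at 0.882 RPM in replicate 3 of PD12, 0.407 in replicate 2 of PD16 and 1.62 in replicate 3 of CD16. Skewed fragment b was at 0.375 RPM in replicate 1 of CD12. The G15A form of 29 bases was at 0.639 RPM in replicate 1 of PD16, 0.964 in replicate 4 of CD12 and 0.757 in replicate 1 of CD20, and the form with G15A and T27C at 0.156 RPM in replicate 2 of CD12 and 0.363 in replicate 5 of CD20.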

How the results depend on the processing

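The calls between days of pregnancy (14 members) and for PD20 against CD20 (11 members) depended on the test, the filter and single libraries. In that order, the likelihood ratio test called 41 and 50 members, beside 2.21% and 1.92% of all sequences. DESeq2 called 31 and 48, beside 2.06% and 2.79%, and a minimum of 10 reads 59 and 65, beside 0.967% and 0.674%. Counts summed over the first 17 bases within a length class called 26 and 25 members, beside 20 and 13 of 3104 such sums. Here every member in a called sum was counted, so that members can outnumber sums. With all deposited reads or with the annotated reads as library size and no TMM, 6 members were called for PD20 against CD20, beside 13 of 7137 sequences. RLE called 14 and 11 members, all shared with the main test, beside 46 and 22 sequences. Without replicates 3 and 6 of PD20, chosen after seeing the data, 6 and 0 members were called, beside 19 and 0 of 7137 sequences. As single contrasts, also chosen after seeing the data, day 20 against day 12 called 6 members, beside 13 sequences, and day 16 against day 12 called 0, beside 0. Leaving out 1 library gave 11 to 21 calls between days of pregnancy, the latter without replicate 4 of PD20, and 0 to 21 for PD20 against CD20, beside 22 to 52 and 0 to 42 of 7137 sequences. Here 0 members were called without replicate 1, 2 or 5 of CD20, 1 without replicate 3 or 4 of CD20, 5 without replicate 6, 7 without replicate 5 and 21 without replicate 4 of PD20. The cause was not tested. Between days of the cycle 3 members were called by the likelihood ratio test, 3 by DESeq2 and 4 with a minimum of 10 reads, beside 0.911%, 0.673% and 0.29% of all sequences. That minimum also called 9 for PD12 against CD12 and 4 for PD16 against CD16, beside 0.272% and 0.133%. The interaction called 5 members by the likelihood ratio test and 6 by DESeq2, beside 0.336% and 0.518%. Leaving out 1 library called 0 members in each of these 4 comparisons.

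Whether the replicate numbers pair the samples was not given in the labels. Over pairs of libraries from different groups, the deviations from the group means correlated at -0.553 to 0.680 (median 0.0998) for the same number. For different numbers they correlated at -0.591 to 0.638 (median -0.033). These ranges overlap, so that they cannot decide whether the samples are paired. Libraries within 1 to 12, 13 to 24 or 25 to 36 of the title numbers correlated at a median of 0.225 and others at -0.123. With these ranges as a block 17 and 14 members were called, beside 44 and 27 of 7137 sequences. Of the 14, 1 was a Y RNA member that was lower in PD20 than in CD20. With the replicate number as a block, 0 members were called between days of pregnancy and 4 for PD20 against CD20, beside 0 and 4 sequences.

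Restricted to 29 to 31 bases, the share of all reads was 0.721% in PD12, 0.600% in PD16 and 1.37% in PD20, with 0.555% in CD12, 0.547% in CD16 and 0.612% in CD20. Set against the annotated reads, it was 1.76% in PD12, 1.61% in PD16 and 2.82% in PD20, with 1.66% in CD12, 1.57% in CD16 and 1.75% in CD20. Leaving out 1 library gave 1.31 to 1.46% in PD12, 1.21 to 1.35% in PD16 and 1.95 to 2.44% in PD20, with 1.18 to 1.39% in CD12, 1.17 to 1.34% in CD16 and 1.32 to 1.44% in CD20. C/D fragment b, the tRNA-Gly fragment, skewed fragment b and the 4 G15A forms shown kept their direction under the alternatives run, in 249 of 294 cases on the same side of the threshold, with 41 losing a call and 4, all of the tRNA-Gly fragment, gaining one.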
